A study of Homo sapiens with 4 samples.

Results

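Hs746T cells transfected with a scrambled control siRNA (sc siRNA) were set against the same cells given the vehicle DMSO, to describe which genes and functions differ with a control transfection. Hs746T is an established gastric carcinoma cell line that carries both an amplified MET gene and a splice mutation that skips a MET exon. The comparison uses 2 of the 4 single-colour Agilent 44K (V2) expression arrays of the series, those titled for sc siRNA and for DMSO. MET was suppressed in neither. The other arrays hold cells treated with the MET inhibitor PHA665752 and cells transfected with MET siRNA, for which the DMSO and sc siRNA cells served as the respective controls. The cells were grown in DMEM with heat-inactivated fetal bovine serum. The sc siRNA was delivered with a Lipofectamine reagent in Opti-MEM, complete medium was given after 6 h, and harvest followed at 48 h. The duration and dose of DMSO for the array are not given in the sources used here. The lipid, the siRNA, the vehicle and the time in culture therefore cannot be told apart. There was 1 array per condition, so no value has a replicate error and no test was possible, and this number of arrays sets the limit of precision.

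A signal is the processed intensity of a probe in linear units, as the scanner software wrote it. A log2 ratio is sc siRNA minus DMSO on the log2 scale, each array scaled to its own 75th percentile, and a fold is that ratio on the linear scale. The 75th percentile corresponded to a signal of 990.1 with DMSO and 831 with sc siRNA, so a fold is somewhat larger than the quotient of the signals. Of the probes, 67.4% were well above background with DMSO and 68.2% with sc siRNA. The brightest usable probe stood for its gene. A gene not well above background on 1 of the arrays has only a bound, written as at least N-fold, and a gene dim on both has no ratio. "Rose" and "fell" are used for genes past 2-fold only.

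Cells carry receptors for foreign nucleic acid. RIG-I (RIGI) and MDA5 (IFIH1) read double-stranded RNA in the cytosol and signal through MAVS, while TLR3 reads it in endosomes and signals through TICAM1. Both routes activate the kinase TBK1, the factors IRF3 and IRF7 and the NF-kB pathway, which switch on interferon and chemokine genes. Secreted type I and type III interferons bind their receptors and, through JAK1 and TYK2, assemble STAT proteins and IRF9 into a complex that binds interferon-stimulated response elements (ISREs) in the promoters of interferon-stimulated genes. Their products degrade viral RNA, block translation, trap viral particles and raise the level of the sensors themselves. Small duplex RNAs and the cationic lipids that carry them are known to be able to engage this system.

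The promoters of the interferon, cytokine and NF-kB list members that rose most are shown first, because the ISRE is the element through which the pathway acts. They are the members highest in rank with an entry in the RefSeq promoter table (GRCh38.p14). Each run gives the 250 bases before an annotated start, 5′ to 3′ on the strand of the gene, and the capitals mark matches to an ISRE core (GAAANNGAAA) or a kB motif (GGGANNTTCC), both searched on both strands.
RSAD2, chr2:6877527-6877776, plus strand: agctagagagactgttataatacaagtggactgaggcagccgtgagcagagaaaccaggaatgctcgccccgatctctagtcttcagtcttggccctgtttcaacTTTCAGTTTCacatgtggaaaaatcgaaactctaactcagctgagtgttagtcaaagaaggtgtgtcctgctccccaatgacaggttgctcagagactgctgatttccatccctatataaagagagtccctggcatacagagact
MX1, chr21:41431800-41432049, plus strand: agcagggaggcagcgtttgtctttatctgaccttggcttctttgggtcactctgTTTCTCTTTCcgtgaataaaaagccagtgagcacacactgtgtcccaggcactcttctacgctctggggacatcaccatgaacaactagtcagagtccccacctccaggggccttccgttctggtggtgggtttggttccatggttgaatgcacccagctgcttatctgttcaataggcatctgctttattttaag
OAS1, chr12:112906712-112906961, plus strand: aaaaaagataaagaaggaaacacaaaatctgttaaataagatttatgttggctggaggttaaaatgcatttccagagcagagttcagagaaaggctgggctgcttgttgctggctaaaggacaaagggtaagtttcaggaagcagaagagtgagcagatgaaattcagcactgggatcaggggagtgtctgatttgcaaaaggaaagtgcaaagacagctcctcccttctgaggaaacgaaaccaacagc
CXCL11, chr4:76036071-76036320, minus strand: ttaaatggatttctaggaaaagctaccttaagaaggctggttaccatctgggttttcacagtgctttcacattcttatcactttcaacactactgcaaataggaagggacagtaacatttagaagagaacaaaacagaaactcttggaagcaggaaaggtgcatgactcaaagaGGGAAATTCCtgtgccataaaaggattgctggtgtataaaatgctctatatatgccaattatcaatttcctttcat
CMPK2, chr2:6866636-6866885, minus strand: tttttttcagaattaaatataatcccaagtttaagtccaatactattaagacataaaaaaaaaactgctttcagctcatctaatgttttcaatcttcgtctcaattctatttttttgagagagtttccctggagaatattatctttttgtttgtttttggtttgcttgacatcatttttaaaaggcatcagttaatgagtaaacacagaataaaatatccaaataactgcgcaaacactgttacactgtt
IFIT1, chr10:89392373-89392622, plus strand: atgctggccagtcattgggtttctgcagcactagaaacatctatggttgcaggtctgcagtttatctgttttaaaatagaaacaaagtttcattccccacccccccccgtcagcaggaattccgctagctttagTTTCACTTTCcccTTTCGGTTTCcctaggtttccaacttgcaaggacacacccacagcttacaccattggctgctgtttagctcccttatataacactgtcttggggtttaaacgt

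The IFIT1 promoter held 2 ISRE matches, 94 and 107 bases before the start, and those of RSAD2 and MX1 held 1 each, at 136 and 187 bases. CXCL11 held 1 kB match, 67 bases before its start. OAS1 and CMPK2 held neither motif, which says only that these letters are not in these windows. RSAD2 has 2 annotated starts in the table, and MX1 and CMPK2 have 3 each, and the start with most matches is printed. Over all genes of the table, 3.72% held the ISRE core before at least 1 start and 1.74% held the kB motif. Of the genes measured on both arrays that rose past 8-fold and had an entry, 15 of 24 held the ISRE core (62.5%). The share was 14.7% for genes that rose between 2-fold and 8-fold (30 of 204), 3.31% for genes within 2-fold (362 of 10953) and 3.03% for genes that fell (2 of 66). The share with an ISRE core was thus highest among the largest rises, lower among the smaller rises though above that of all genes, and near that of all genes among the genes within 2-fold and those that fell. A match is a description of the sequence and not evidence of binding.

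Of 19523 genes on the array, 14857 had a ratio and 14197 of these were well above background on both control arrays. The median log2 ratio was -0.01, with 5th and 95th percentiles of -0.56 and 0.72. With sc siRNA 424 genes rose past 2-fold (2.85%) and 169 fell (1.14%), bounds included. Over all 34127 probes 2.9% were past 2-fold in either direction. Among the genes measured on both arrays 304 rose and 88 fell, and the difference between directions widened with size, with 75 against 2 past 4-fold and 33 against 1 past 8-fold. The noise between spots of one array, from the probes spotted 10 times, amounted to 0.079 for a log2 ratio, which does not cover differences between cultures. The share of genes that rose was 3.66% in the dimmest of 4 equal bins of genes by signal and 1.49% in the brightest. Where a gene that rose had another measured probe, all its other probes had the same sign in 41 of 48 genes and were past 2-fold in 28. For genes that fell the numbers were 14 of 16 and 4.

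**Figure D1:**
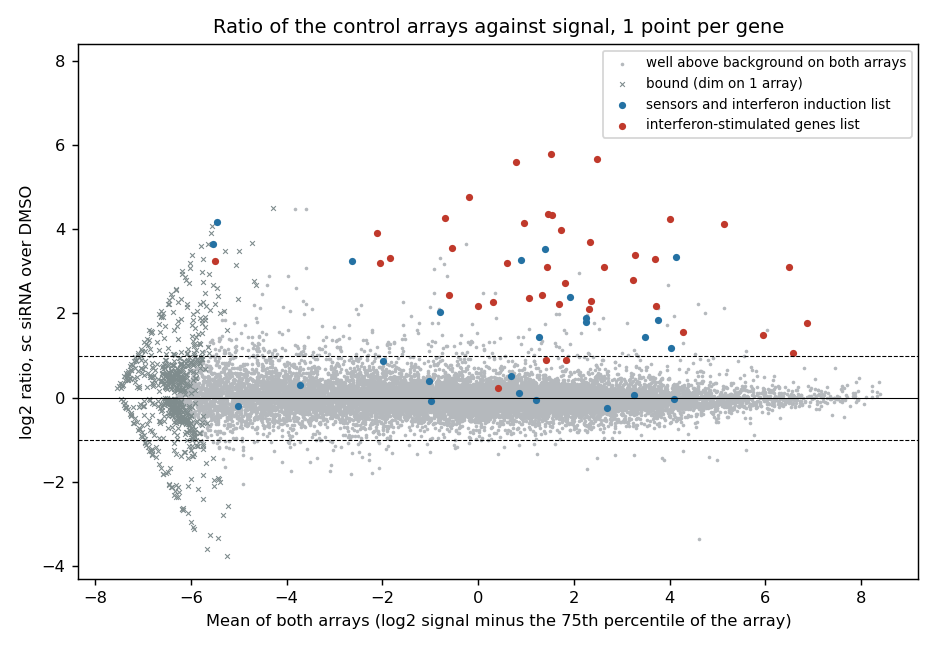
The log2 ratio of sc siRNA over DMSO (vertical axis) is plotted against the mean scaled log2 signal of both arrays (horizontal axis), 1 point per gene, with crosses for bounds and dashed lines at 2-fold. Members of the interferon-stimulated genes list (red) and of the sensor list (blue) make up most of the points furthest above 0, at low and at high signal, while the cloud of other genes lies around 0.

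The 15 largest rises among genes measured on both arrays ran from a log2 ratio of 3.70 to 5.79. Of these, 13 were in the list of interferon-stimulated genes, as were 21 of the 30 and 27 of the 50 largest. The exceptions in the first 15 were ETV7 and LILRB3. ETV7, an ETS-family factor, had a signal of 17.2 with DMSO and 324 with sc siRNA, a 22.4-fold rise that was 5.9-fold under normexp, a background correction that adds an offset of 50 to every signal. LILRB3, an inhibitory leukocyte receptor, went from 14.7 to 276 (22.4-fold), but its other probe had a log2 ratio of -0.74 and its signal with MET siRNA was 9.51, not well above background. With normexp the fold of LILRB3 was 5.19. All 15 rises were past 2-fold under each of the 9 processing alternatives.

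Of the 34 gene lists, written with earlier results of these data known, the interferon-stimulated genes had the highest median. Of 45 genes in that list 41 had a usable probe, and 38 of the 41 rose (92.7%, beside 2.85% of all genes), 23 of them past 8-fold (0.337% of all genes). None fell. The median log2 ratio was 3.11, beside -0.01 for all genes. The remaining 3 were GBP3 at 0.89, LGALS3BP at 0.90 and GBP2 at 0.24. The 4 members without a ratio were IFI27, ISG15, DDX60L and GBP1. For the last 3 the software had marked a spot as an outlier, and with the marks ignored their log2 ratios were 3.75 (ISG15, the ubiquitin-like modifier), 2.81 (DDX60L) and 2.08 (GBP1).

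**Figure D2:**
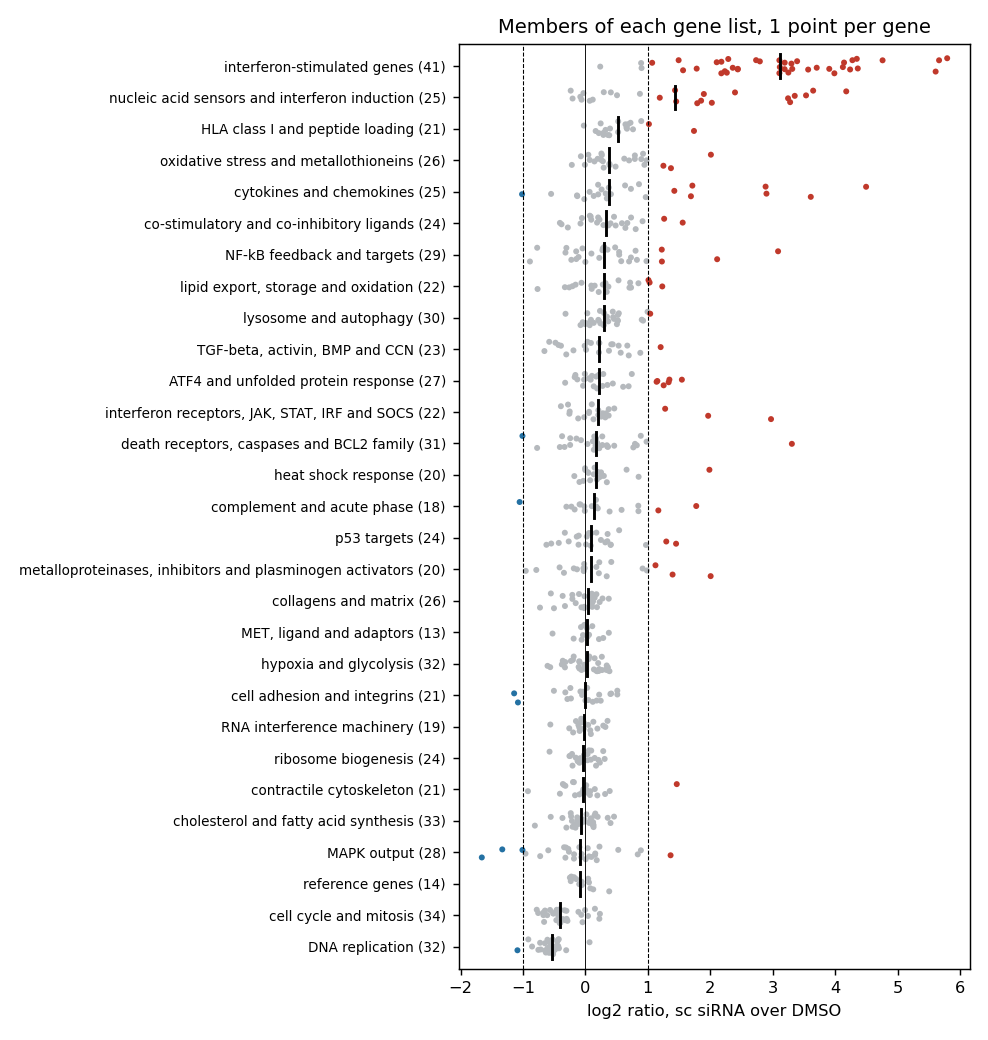
Each row is a gene list of at least 8 genes, with the number of members that had a ratio in parentheses, and each point is the log2 ratio of sc siRNA over DMSO of 1 member (red, past 2-fold higher, blue, past 2-fold lower, grey, within 2-fold). Black bars are list medians and dashed lines mark 2-fold. The medians run from 3.11 for interferon-stimulated genes to -0.53 for DNA replication.

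The interferon genes themselves are at the head of the pathway. IFNB1, the gene of interferon beta, had a signal of 2.63 with DMSO and 3.32 with PHA665752, at background on both, and of 165 with sc siRNA and 555 with MET siRNA. It was therefore at least 18.1-fold higher with sc siRNA than with DMSO. IFNL1, a type III interferon, was also dim with DMSO (3.36) and measured with sc siRNA (114), at least 12.5-fold higher. Its spot with MET siRNA was marked and left out. IFNL2 was measured on each array, with a signal of 51.7 with DMSO and 39.5 with PHA665752, against 411 with sc siRNA and 1492 with MET siRNA. The gap between its transfected and untransfected arrays was at least 3.25 on the log2 scale, and sc siRNA was 9.48-fold over DMSO. IFNL2 has the near-identical copy IFNL3, which this probe may not distinguish. Under normexp correction the folds were 4.01 for IFNB1, 2.87 for IFNL1 and 4.91 for IFNL2. IFNE, an interferon of epithelia, was within 2-fold (log2 ratio 0.29).

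Of the 30 genes of the sensor and interferon induction list, 25 had a ratio and 14 of them rose (56.0%, beside 2.85% of all genes), and none fell. The RNA sensors rose together. IFIH1 had a signal of 771 with DMSO and 7488 with sc siRNA (11.6-fold), and RIGI went from 591 to 4815 (9.7-fold). DHX58, which encodes LGP2, a regulator of both, went from 1624 to 7170.2 (5.26-fold). TLR3, the endosomal receptor, went from 283 to 965 (4.07-fold), and EIF2AK2, which encodes the kinase PKR that halts translation on double-stranded RNA, from 6994 to 21186 (3.61-fold). For each of these 5 genes both transfected arrays lay above both untransfected ones. That was the case for 14.1% of the 12906 genes measured on all 4 arrays.

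The DNA sensors AIM2 and IFI16 rose 3.72-fold and 3.46-fold over DMSO, but their signals with PHA665752 (6897 and 6078) were close to those with sc siRNA (7588 and 7339). ADAR, which edits double-stranded RNA, rose 2.7-fold, and TRIM25, a ubiquitin ligase of the RIG-I pathway, 2.28-fold. MYD88, the adaptor of most Toll-like receptors, rose 2.74-fold. The adaptors of the RNA sensors did not pass 2-fold, with log2 ratios of -0.24 for MAVS and -0.033 for TICAM1, and neither did TBK1 (0.51), IRF3 (-0.083), or the DNA sensing genes CGAS (0.12) and STING1 (0.068). TLR7, TLR8, TLR9 and ZBP1 were not well above background on either control array.

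Downstream of the interferon receptors, 3 of the 22 measured genes of the receptor, JAK, STAT, IRF and SOCS list rose (13.6%, beside 2.85%), IRF9 and IRF1 among them. IRF9, the DNA-binding subunit of the complex named above, went from 2409.6 with DMSO to 7896 with sc siRNA (3.9-fold), and IRF1 from 178 to 361 (2.42-fold). IRF7, the factor that amplifies interferon transcription and is counted among the induction genes above, went from 5421 to 46452 (10.2-fold). STAT2 had a marked spot, and with marks ignored its log2 ratio was 2.08. The receptor chains were within 2-fold, with log2 ratios of -0.28 for IFNAR1, -0.02 for IFNAR2, -0.12 for IFNLR1 and 0.25 for IL10RB. The kinases JAK1 (0.10) and TYK2 (-0.39) and the feedback inhibitor SOCS1 (-0.26) were within 2-fold as well.

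**Figure D3:**
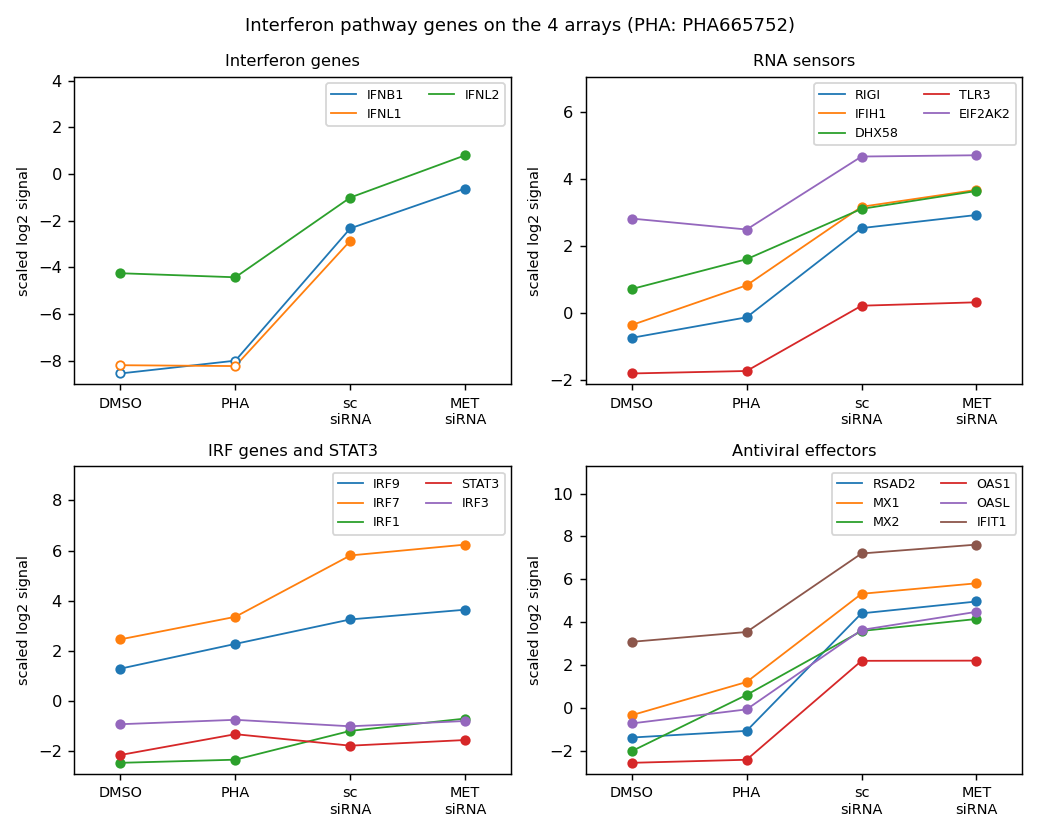
Scaled log2 signal (vertical axis, relative to the 75th percentile of each array) of interferon genes, RNA sensors, IRF genes, STAT3 and antiviral effectors on the 4 arrays (horizontal axis, 1 array per condition). Filled points are well above background and open points are not, and IFNL1 has no usable spot with MET siRNA. The plotted genes other than STAT3 and IRF3 step up between the DMSO and PHA665752 arrays and both siRNA arrays.

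Among the effectors, RSAD2, which encodes viperin, an enzyme that makes a chain-terminating ribonucleotide, rose most. Its signal was 379 with DMSO and 406 with PHA665752, against 17660.4 with sc siRNA and 26768 with MET siRNA, and sc siRNA stood 55.5-fold over DMSO. CMPK2, a nucleotide kinase, went from 458 to 6787 (17.6-fold). MX1, a GTPase that traps viral nucleoproteins, had 781 with DMSO and 33218 with sc siRNA (50.7-fold). MX2, its homologue, had 244 and 9993 (48.8-fold). The 2 MX genes and RSAD2 were the only genes measured on both arrays to pass a log2 ratio of 5.

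The OAS enzymes make oligoadenylates on double-stranded RNA. OAS1 had a signal of 168 with DMSO and 159 with PHA665752, against 3805 with sc siRNA and 3953 with MET siRNA (27.1-fold, sc siRNA over DMSO). OAS3 went from 198 with DMSO to 1965 with sc siRNA (11.8-fold), OAS2 from 2088 to 15152 (8.65-fold) and OASL from 599 to 10327 (20.6-fold). All 4 OAS genes thus rose past 8-fold. As the median over its probes OAS2 rose 21.1-fold.

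The IFIT proteins bind foreign RNA and block its translation. IFIT1 went from 8376 with DMSO to 122445 with sc siRNA (17.4-fold), and IFIT2 from 3671 to 58158 (18.9-fold), with a log2 ratio of 4.54 at its other probe. IFIT3 went from 4095 to 33825 (9.84-fold) and IFIT5 from 2305 to 9440.0 (4.88-fold). The IFITM proteins, which keep viruses from fusing with membranes, were bright with DMSO already. IFITM1 rose 8.61-fold, IFITM3 3.44-fold and IFITM2 2.81-fold, and these genes are close copies whose probes may share signal. Genes were also grouped by the letters of their symbol, a grouping made after values had been seen. Only groups of at least 5 genes with a ratio were kept, which left out the OAS and MX genes. Of these 496 groups IFIT had the highest median (3.30), followed by IFITM (1.78).

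Regulators and helpers of the response rose as well. USP18, which removes ISG15 from proteins and damps receptor signalling, went from 643 with DMSO to 10965 with sc siRNA (20.3-fold). TRIM22, a ubiquitin ligase, went from 139.7 to 2272 (19.4-fold), XAF1, an antagonist of the apoptosis inhibitor XIAP, from 819.6 to 10907 (15.9-fold), and EPSTI1 from 58.8 to 739.8 (14.98-fold, 7.59-fold with normexp). RTP4 went from 1379 to 15073 (13.0-fold). HERC5, the ligase for ISG15, was at background with DMSO (4.67) and at 86.6 with sc siRNA, at least 9.52-fold higher, or 2.58-fold with normexp. BST2, or tetherin, which holds budding virus at the cell surface, rose 4.29-fold, and the ADP-ribosyltransferase genes PARP9, PARP12 and PARP14 rose 9.12-fold, 5.13-fold and 4.7-fold. At the lower end of the list were IFI44 (2.95-fold) and ISG20, an exonuclease (2.1-fold, within 2-fold with the 50th percentile or quantile normalization). Of the 37 list members measured on all 4 arrays, 36 had both transfected arrays above both untransfected ones, against 14.1% of genes, and in 33 the gap was more than 2-fold, against 0.814%.

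Antigen presentation genes moved less than the antiviral genes. Of the 21 genes of HLA class I and peptide loading, 2 rose (9.52%, beside 2.85%). TAP1, a subunit of the peptide transporter, went from 8337 with DMSO to 23330.2 with sc siRNA (3.33-fold). NLRC5, the class I transactivator, went from 63.1 to 107 (2.02-fold), and was within 2-fold when arrays were scaled to the 50th percentile, under quantile normalization and under both other background corrections. The log2 ratios of HLA-B, HLA-C and HLA-E were 0.66, 0.64 and 0.89, those of B2M and the immunoproteasome subunits PSMB8 and PSMB9 were 0.66, 0.68 and 0.72, and 20 of the 21 genes were above 0, beside 48.5% of all genes. The HLA class I genes are close copies, so their probes may share signal. Of the co-stimulatory and co-inhibitory ligands, 2 of 24 measured rose (8.33%, beside 2.85%). CD86 went from 124 to 305 (2.94-fold), and its signal was 109 with PHA665752 and 156 with MET siRNA. LGALS9, which encodes galectin-9, went from 45.1 to 90.7 (2.4-fold). It has close copies, and its fold was 1.76 with normexp and 4.14 as the median over its probes. The log2 ratio of CD274, the gene of PD-L1, was -0.057 and that of PDCD1LG2, the gene of PD-L2, was 0.67.

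Of the death receptor, caspase and BCL2 family list, 1 of 31 measured genes rose (3.23%, beside 2.85% of all genes) and 1 fell (3.23%, beside 1.14%), shares that rest on a single gene each. The gene that rose was TNFSF10, which encodes TRAIL, a ligand that triggers apoptosis. Its signal was 182 with DMSO and 164 with PHA665752, against 1506 with sc siRNA and 2929 with MET siRNA (9.89-fold, sc siRNA over DMSO). TNFRSF10D, a TRAIL receptor that carries no full death domain, fell from 1461 to 609 (2.01-fold) but was within 2-fold under both other background corrections. The signalling TRAIL receptors TNFRSF10A and TNFRSF10B had log2 ratios of 0.46 and 0.14, and the inflammatory caspases CASP1, CASP4 and CASP5 of 0.79, 0.82 and 0.89. The apolipoprotein L genes encode lipid-binding proteins and respond to interferon. They supplied all 3 rises among the 22 measured genes of the lipid export, storage and oxidation list (13.6%, beside 2.85%). These were APOL6 (2.35-fold), APOL2 (2.04-fold) and APOL1 (2.01-fold). APOL1 and APOL2 lay close to the threshold and did not pass it with the 50th percentile, quantile normalization or normexp correction, nor APOL1 with plain background subtraction.

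Chemokines and cytokines rose from low signals. Of the 25 measured genes of that list 7 rose (beside 2.85% of all genes) and 1 fell (4.0%, beside 1.14%), and the median log2 ratio was 0.37. CXCL11, a chemokine that draws T cells through CXCR3, was at background with DMSO (10.6) and PHA665752 (2.63), and at 205 with sc siRNA and 262 with MET siRNA. With sc siRNA it was at least 22.6-fold higher than with DMSO. CXCL10, which shares its receptor, had signals of 2.4, 2.6, 111 and 307 in the same order, at least 12.2-fold higher. Both chemokines were thus detected on the transfected arrays only. CCL5, which attracts T cells and monocytes, went from 17.5 with DMSO to 109.6 with sc siRNA (7.46-fold), and IL6 from 23.2 to 144 (7.39-fold). Under normexp correction the fold was 2.36 for CCL5 and 2.86 for IL6, and the bounds of CXCL11 and CXCL10 became 4.66 and 3.20. CXCL8, a neutrophil chemokine, rose 3.28-fold, CCL3, which has near-identical copies, 3.22-fold and IL32 2.68-fold. IL11, a cytokine of the IL-6 family, fell from 1011 to 419 (2.02-fold), but its signal with PHA665752 (311) was lower still. TNF (0.63), IL1B (-0.13) and CXCL1 (-0.14) were within 2-fold on the log2 scale.

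Of the NF-kB feedback and target genes 4 of 29 measured rose (13.8%, beside 2.85%) and none fell. BIRC3, the inhibitor of apoptosis cIAP2, had a signal of 28.2 with DMSO and 30.4 with PHA665752, against 201 with sc siRNA and 287 with MET siRNA (8.49-fold, sc siRNA over DMSO). Its fold was 3.35 under normexp correction. PTX3, a secreted pattern recognition protein, went from 80.8 to 292 (4.31-fold, 2.85-fold with normexp), KYNU, an enzyme of tryptophan breakdown, from 70.8 to 139 (2.33-fold), and TNFAIP3, the feedback inhibitor A20, from 2006 to 3926 (2.33-fold). KYNU was within 2-fold with normexp. Other common targets had smaller ratios, 0.73 for NFKBIA, 0.98 for ICAM1, 0.54 for RELB and 0.10 for NFKB1 on the log2 scale. Of 18 measured complement and acute phase genes, CFB (3.42-fold) and C1S (2.25-fold) rose (11.1%, beside 2.85% of all genes). C5 fell 2.08-fold (5.56%, beside 1.14%), and its fall was within 2-fold under both other background corrections. Both genes that rose had higher signals with PHA665752 (2591 and 6132) than with sc siRNA (649 and 2673).

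A group of stress genes rose by up to 4.03-fold. Of the 27 measured genes of the ATF4 and unfolded protein response list 6 rose (22.2%, beside 2.85%). They were the cystine transporter subunits SLC7A11 (2076 to 5080.4, 2.92-fold) and SLC3A2 (2256 to 4169.7, 2.2-fold), the factors DDIT3 (2.54-fold) and ATF3 (2.22-fold, within 2-fold as the median over its probes), the pseudokinase TRIB3 (2.38-fold) and the glutathione-degrading enzyme CHAC1 (2.52-fold). The chaperone targets of the endoplasmic reticulum branch had log2 ratios near 0, with -0.039 for HSPA5, -0.01 for HYOU1 and -0.33 for SDF2L1. Of 26 measured oxidative stress genes and metallothioneins 3 rose (beside 2.85% of all genes). The largest rise was that of HMOX1, which breaks down heme, from 13139 with DMSO to 44382 with sc siRNA (4.03-fold). The others were AKR1B10 (2.58-fold, within 2-fold with normexp) and OSGIN1 (2.38-fold). HMOX1, ATF3 and AKR1B10 do not separate transfected from untransfected arrays, since their signals with PHA665752 were 32081, 16994 and 204.

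Single members rose in several other lists, and counts of 1 gene in 20 to 30, as for heat shock (5.0%) and for lysosome and autophagy (3.33%), are near or little above the 2.85% of all genes. HSPA6, a strictly inducible heat shock protein with a close copy in the genome, went from 87.1 to 289 (3.96-fold), while the other 19 heat shock genes were within 2-fold. Its other probe had a log2 ratio of 0.67, its median over probes was 2.51-fold, and its scaled log2 signal with PHA665752 (-1.42) was above that with sc siRNA (-1.52). SQSTM1, the autophagy receptor p62, rose 2.05-fold and was the only member past 2-fold of 30 lysosome and autophagy genes, with its signal higher with PHA665752 (44986) than with sc siRNA (27349). It was within 2-fold with the 50th percentile, quantile normalization or normexp correction. Of 24 p53 targets 2 were higher past 2-fold (8.33%, beside 2.85%). PLK2 rose 2.45-fold and SPATA18 was at least 2.73-fold higher, whereas CDKN1A (0.021) and MDM2 (-0.11) had log2 ratios near 0. MMP3 (2.63-fold) and MMP1 (2.17-fold), secreted proteases, rose, and MMP2 was detected with sc siRNA (36.5) and at background on the other 3 arrays. ANKRD1 (2.75-fold), the BMP target ID2 (2.3-fold) and EGR2 (2.57-fold) rose, and each was the only member of its list to do so. ID2 and SPATA18 had higher signals with PHA665752 (4611 and 32.6) than with sc siRNA (1230 and 24.9). The signal of EGR2 with PHA665752 (153) was close to that with sc siRNA (162). Under normexp correction SPATA18, MMP2, ANKRD1 and EGR2 were within 2-fold.

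Genes of DNA replication and of the cell cycle were shifted down as groups by less than 2-fold. In the DNA replication list 31 of 32 measured genes had a log2 ratio below 0, where 48.5% of all genes were above 0, and the median was -0.53, between -0.63 and -0.50 over the 9 processing alternatives. A single member fell past 2-fold, LIG1, the ligase that joins Okazaki fragments, from 3256 with DMSO to 1283 with sc siRNA (2.13-fold). RRM2, a subunit of ribonucleotide reductase, had a signal of 1367 with DMSO and 608 with sc siRNA (log2 ratio -0.92), TYMS, thymidylate synthase, of 27865 and 12922 (-0.86), and PCNA, the sliding clamp, of 10045 and 5653 (-0.58). In the cell cycle and mitosis list 30 of 34 genes were below 0, the median was -0.41, and none passed 2-fold. Examples were TOP2A (-0.78), E2F1 (-0.76), PLK1 (-0.67) and CDK1 (-0.66), and the cyclins of the G1 phase CCND1 (-0.067) and CCND3 (-0.048) were nearer to 0.

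Histone genes that sit in clusters and are made in S phase were a further group lower with sc siRNA, one that was looked at after values had been seen. Of 54 with a ratio 39 were below 0, 8 fell past 2-fold (beside 1.14% of all genes) and none rose. H4C4 went from 8553 with DMSO to 2217 with sc siRNA (3.24-fold), with a log2 ratio of -0.51 at its other probe, and H4C2 from 52371 to 15744 (2.79-fold). H3C2 fell 2.59-fold and H4C13 2.38-fold. The signal with PHA665752 was lower still for each of these, at 1232, 9236, 1098 and 15190.1. Clustered histone genes are nearly identical to each other, so single members are uncertain.

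The small proline-rich proteins, which are cross-linked into the envelope of keratinising cells, had the lowest median of the 496 symbol groups (-1.41). Of the 9 measured SPRR genes 6 fell, and all 6 were SPRR2 genes. SPRR2F had a signal of 24558 with DMSO and 443 with PHA665752, against 7335 with sc siRNA and 6809.6 with MET siRNA. It fell 2.81-fold between DMSO and sc siRNA. SPRR2E went from 45813 to 14497 (2.65-fold), SPRR2A from 23071 to 7211 (2.69-fold) and the dimmest, SPRR2B, from 147 to 43.0 (2.86-fold). The folds of the 6 genes lay between 2.55 and 2.86, and as near-identical copies they may report a single signal. SPRR1A (0.015) and SPRR3 (0.044) had log2 ratios near 0.

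Of the AP-1 genes FOS and FOSB, which are immediate early genes, fell. FOSB had a signal of 419 with DMSO and 1352 with PHA665752, against 111 with sc siRNA and 156 with MET siRNA (3.16-fold lower with sc siRNA than with DMSO, 2.1-fold with normexp). FOS had 3704, 12443, 1234 and 1708 in the same order (2.52-fold lower). Both transfected arrays lay below both untransfected ones for these 2 genes, which was the case for 19.5% of genes measured on all 4 arrays. Of the 28 measured MAPK output genes 3 fell (beside 1.14%), the third being PHLDA1 (2.01-fold, within 2-fold with normexp), and 1 rose. PHLDA1 had a signal of 1622 with DMSO, 676 with sc siRNA and 293 with PHA665752. JUNB (-0.96) and JUN (-0.73) had negative log2 ratios within 2-fold, while the MAPK phosphatase genes DUSP6 (0.036) and DUSP5 (0.057) and the feedback inhibitor SPRY4 (0.002) were near 0.

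**Figure D4:**
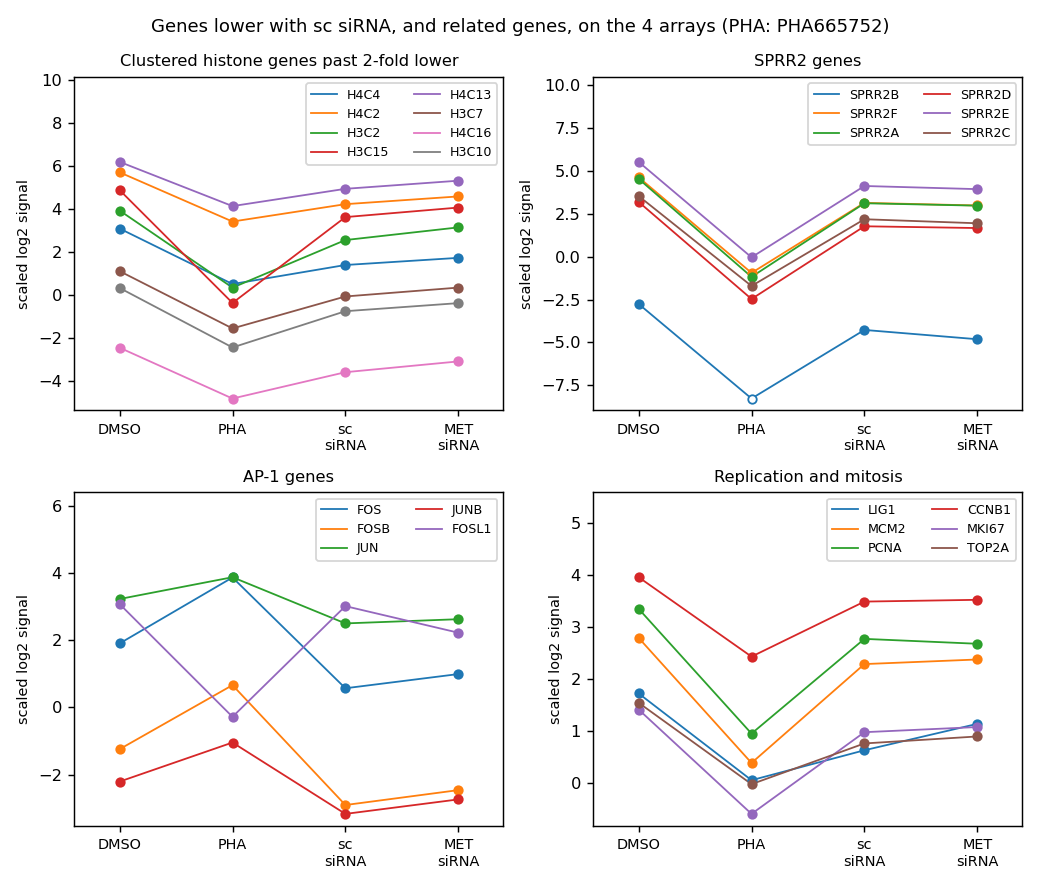
Scaled log2 signal (vertical axis) on the 4 arrays (horizontal axis, 1 array per condition) of the clustered histone genes and SPRR2 genes that fell past 2-fold, of AP-1 genes and of replication and mitosis genes. The histone and SPRR2 genes are highest with DMSO and lowest with PHA665752, with both siRNA arrays between, whereas FOS and FOSB are highest with PHA665752 and lowest with sc siRNA.

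The largest fall among genes measured on both arrays was that of RNA5-8SN5, a gene of a small ribosomal RNA, from 76988 with DMSO to 6329 with sc siRNA (10.2-fold). Ribosomal RNA genes lie in near-identical repeats, and the spot with MET siRNA was marked. It was the only fall past 8-fold, and the next was SYT14, from 66.6 to 13.5 (4.14-fold), whose other probe had a log2 ratio of 0.16. EML2, a microtubule-associated protein, fell 3.53-fold, WHR1 3.43-fold, TAF5L, a subunit of histone acetylase complexes, 3.36-fold, and GADL1 3.35-fold. LINC00641, a long noncoding RNA (3.13-fold), FOXQ1, a forkhead factor (3.04-fold), LPAR1, a receptor for lysophosphatidic acid (2.88-fold), and SPACA6 (2.77-fold) completed the 15 largest falls with H4C4, H4C2, FOSB, SPRR2B and SPRR2F. Of the 15 falls 8 stayed past 2-fold under all 9 alternatives. The others, FOXQ1, GADL1, LINC00641, LPAR1, SPRR2B, SYT14 and TAF5L, came within 2-fold under normexp correction. The fall of EML2 was then 2.24-fold. FOXQ1 had a lower signal with PHA665752 (25.2) than with sc siRNA (56.5). No single list held the falls, and 1 of the 15 was in any list.

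Bounds outside the lists were less uniform between arrays. MROH9 (at least 16.9-fold), GPR84, a receptor of medium-chain fatty acids (at least 15.02-fold), and ACTL8 (at least 12.8-fold) were among the 5 largest bounds upward, with signals of 154, 137 and 117 with sc siRNA. Another probe of ACTL8 had a log2 ratio of 0.41. Each was at background on the other 3 arrays, MET siRNA included. In the other direction SEPTIN4 was at least 13.6-fold lower, ABHD12B at least 12.1-fold, DRD2, the dopamine receptor, at least 10.1-fold and REG1A at least 9.62-fold. The signals of these 4 genes with DMSO lay between 117 and 165, and those with PHA665752 between 9.9 and 35.0. With normexp the bounds of these 7 genes were 2.26-fold to 3.57-fold. The latter 4 were thus brighter with DMSO than on the other 3 arrays.

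Several functions had no member past 2-fold. They were cholesterol and fatty acid synthesis (33 genes with a ratio, median log2 ratio -0.07), the RNA interference machinery (19 genes, -0.03), ribosome biogenesis (24 genes, -0.04), hypoxia and glycolysis (32 genes, 0.02), collagens and matrix (26 genes, 0.04) and the reference genes (14 genes, -0.08). In the RNA interference list, which loads and uses siRNA, AGO2 had a log2 ratio of -0.029 and DICER1 of -0.069. GAPDH had a signal of 205489.5 with DMSO and 165101 with sc siRNA, and ACTB of 324892 and 287489.7. MET was at 221452 with DMSO and 100492 with PHA665752, against 190009.5 with sc siRNA and 77853 with MET siRNA, and the control pair gave a log2 ratio of 0.032. MET was thus within 2-fold between the control arrays, and its log2 ratio ranged from -0.12 to 0.17 over the alternatives. The other 12 measured genes of the MET list were within 2-fold.

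Epithelial and mesenchymal markers were measured on both arrays, while the gastric markers had low signals or no ratio. Of the epithelial markers KRT18 had a signal of 33631 with DMSO and 26489.9 with sc siRNA, KRT8 of 3959 and 3868, and EPCAM of 2161 and 1958. CDH1, the gene of E-cadherin, was dim and fell from 33.0 to 13.1 (2.12-fold). With ITGB8 (at least 2.21-fold lower) it made up the falls among 21 adhesion and integrin genes (9.52%, beside 1.14% of all genes). Neither passed 2-fold under normexp correction or plain background subtraction. The mesenchymal markers CDH2 (4099 with DMSO) and ZEB1 (2789.9) were measured too. VIM, whose spot was marked, had a signal of 291839.8 with DMSO and a log2 ratio of 0.03 with the marks ignored. Of the 7 gastric markers 4 had a ratio, at signals of 22.2 to 163 with DMSO, and GKN1, CLDN18 and MUC5AC had none. Of the leukocyte markers, CD3E had no ratio, PTPRC was at 37.8 with DMSO and 22.7 with sc siRNA, and CD14 at 140.2 and 122. CD68 was brighter, at 7551 with DMSO and 11833 with sc siRNA. Of the endothelial markers, PECAM1 was at 1846 with DMSO and 1038.5 with sc siRNA (log2 ratio -0.58), and CDH5 at 88.5 and 65.5. None of the gastric, mesenchymal, leukocyte or endothelial markers was past 2-fold, and CD68, which also marks lysosomes, was nearest at a log2 ratio of 0.90.

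MET siRNA over PHA665752 is the other pair of a transfected and an untransfected array in the series, and it shares no array with sc siRNA over DMSO. MET was suppressed on both of its arrays, by different means, so this pair is not a repeat of the control pair. In this pair 6.8% of 13725 genes with a ratio were more than 2-fold higher with MET siRNA and 8.18% lower. Over the 12906 genes measured on all 4 arrays, 267 were more than 2-fold higher with sc siRNA than with DMSO and 808 with MET siRNA than with PHA665752. They had 136 genes in common, 50.9% of the first list and 16.8% of the second. Of the 68 genes lower in the first pair and 941 in the second 23 were shared, 33.8% and 2.44%. Of the genes measured on all 4 arrays, 30 were past 8-fold between the controls, and all 30 were also past 2-fold between MET siRNA and PHA665752. Among genes measured on both control arrays 33 were past 8-fold. Genes dim or marked on another array, such as LILRB3, are therefore not among the 30. In 105 genes (0.814%) both transfected arrays lay more than 2-fold above both untransfected ones, and in 9 (0.0697%) more than 2-fold below.

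The gene lists differed between the pairs. The interferon-stimulated genes had a median log2 ratio of 3.11 for sc siRNA over DMSO and 2.71 for MET siRNA over PHA665752, with 38 of 41 and 36 of 38 measured genes more than 2-fold higher. For ATF4 and unfolded protein response genes the medians were 0.22 and 0.74. The DNA replication genes had medians of -0.53 and 1.90, and the cell cycle genes of -0.41 and 1.34, opposite in direction. The SPRR group likewise had -1.41 and 3.80. The differences between pairs were not tested, and PHA665752 was part of the second pair only.

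**Figure D5:**
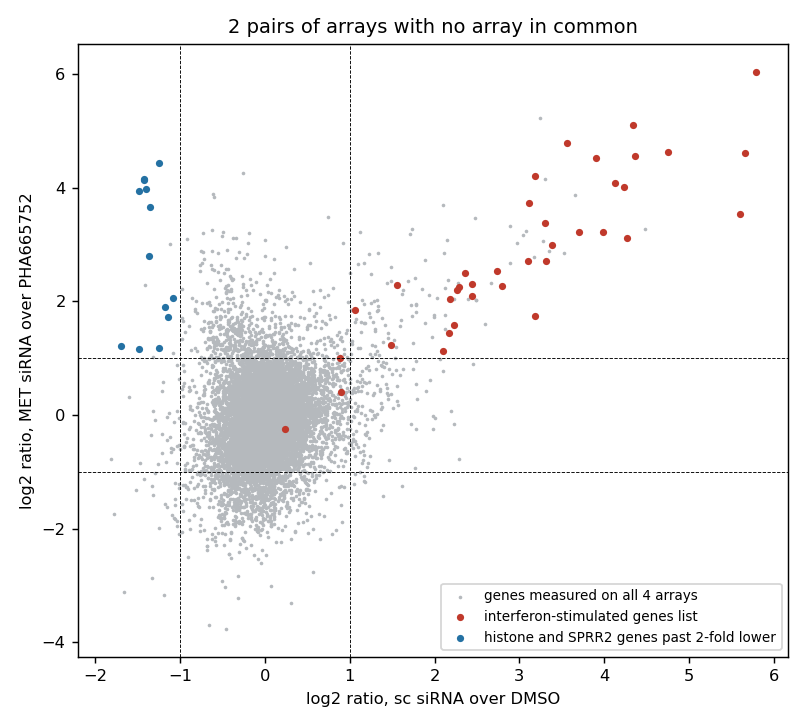
The log2 ratio of MET siRNA over PHA665752 (vertical axis) is plotted against that of sc siRNA over DMSO (horizontal axis) for the 12906 genes measured on all 4 arrays, with dashed lines at 2-fold. Most interferon-stimulated genes (red) lie far up in both pairs, while the histone and SPRR2 genes that fell with sc siRNA (blue) lie below 0 in the control pair and above 0 in the other.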

How the data were processed

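Total RNA of Hs746T cells was measured on 4 single-colour arrays, 1 per condition, all on a single slide. Per the file headers the arrays were read with Feature Extraction 11.5.1.1 (the methods name another version). The processed signal that the authors deposited is a linear intensity after background subtraction and detrending, without scaling between arrays. The deposited series matrix holds the same intensity within 0.06 for the 33128 probes spotted once, and served only as an alternative.

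Control spots and spots marked as outliers were left out (1.92% with DMSO, 1.69% with sc siRNA, 2.21% with PHA665752, 5.58% with MET siRNA). No spot was saturated. Spots of a probe were averaged after log2, and each array was scaled to its 75th percentile. Bounds were taken against the higher of the dim signal itself and the lowest signal well above background. Of 34127 probes, 75.5% received a symbol through RefSeq accessions (GRCh38.p14).

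The genes named were the 15 largest rises and falls measured on both control arrays, the 5 largest bounds each way, up to 4 members of each of 34 lists past 2-fold in each direction (or the brightest 2), and MET. Other members given by ratio, the symbol groups, the histone genes and the genes with marked spots were chosen after values had been seen. The members and lists were chosen with earlier results of these data known. The sequence of sc siRNA was not used here.

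The 9 alternatives were the 50th percentile, quantile normalization, normexp with an offset of 50 (on the median spot signal), plain background subtraction, leaving out bounds, keeping dim probes unfiltered, the series matrix, the median over a gene's probes, and outlier marks ignored. The ratio rule was run on simulated data for sc siRNA over DMSO (33770 probes), where 200 of 200 changed probes were recovered past 2-fold. That run checked the calculation only. The size and signal of the changed probes are not given here, so it does not show recovery near 2-fold or at low signal. How the rule fares with differences between cultures was not tested. The values of a few list members are not reported here, though list counts include them. Python 3.11.15, numpy 2.4.6, pandas 2.3.3, matplotlib 3.10.9, R 4.3.3 and limma 3.58.1 were used.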

Additional observations from a re-analysis of the deposited data

Results flagged for a closer look

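Of the named genes and members of the histone and SPRR groups, 15 moved past 2-fold in opposite directions in the 2 pairs of a transfected and an untransfected array. They were LIG1, 8 clustered histone genes and 6 SPRR2 genes. For LIG1 the log2 ratio was -1.09 for sc siRNA over DMSO and 1.08 for MET siRNA over PHA665752. For sc siRNA over DMSO the log2 ratios of the histone genes were -1.70 for H4C4, -1.48 for H4C2, -1.37 for H3C2, -1.26 for H3C15, -1.25 for H4C13, -1.18 for H3C7, -1.14 for H4C16 and -1.08 for H3C10. In the same order those for MET siRNA over PHA665752 were 1.22, 1.17, 2.80, 4.43, 1.18, 1.90, 1.73 and 2.06. The log2 ratios of SPRR2B, SPRR2F, SPRR2A, SPRR2D, SPRR2E and SPRR2C for sc siRNA over DMSO were -1.52, -1.49, -1.43, -1.42, -1.41 and -1.35. For MET siRNA over PHA665752 they were at least 1.30 for SPRR2B, which was not well above background with PHA665752, and 3.93, 4.15, 4.14, 3.98 and 3.66 for the others in the same order. The difference between the pairs was not tested, because each condition had a single array. The second pair also differs from the first in the inhibitor, and all 15 genes had their lowest signal with PHA665752. Genes of each group are near-identical copies that may report the same signal.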

How the results depend on the processing

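With normexp background correction 1.02% of probes passed 2-fold in either direction, with 206 genes higher and 39 lower, in place of 2.90% of probes, 424 and 169 genes. With bounds left out, 1.80% of probes passed and 88 genes were lower. With no filter on dim probes the values were 7.16% of probes, 836 and 442 genes. The share of higher genes among those past 2-fold was 71.5%, and it was 62.4% with the 50th percentile and 84.1% with normexp. The other alternatives left these counts within 1.5 times their value. The interferon-stimulated genes past 2-fold numbered 37 to 41 and those of the sensor list 12 to 14 over the 9 alternatives. None of the 151 named genes and members of lists and symbol groups past 2-fold changed sign. Of these 151, 41 changed by more than 1.5 times in fold with normexp and 28 came within 2-fold, and with plain background subtraction the numbers were 7 and 9. Low signals limit IFNB1, IFNL1, CXCL10 and CXCL11 to bounds. No paired analysis was possible because each condition had 1 array.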
